A study of Danio rerio with 40 samples.

Results

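Of 20454 genes listed for adult zebrafish eye or brain, 9 genes of the anterior segment of the eye or of human glaucoma are described here: the olfactomedin gene myoc, the transcription factor genes foxc1a, foxc1b, pitx3, pax6a, pax6b and lmx1bb, the autophagy receptor gene optn and the receptor tyrosine kinase gene tek. They were chosen by name from that theme, by exact match of the gene symbol, and all 9 are listed in both organs. Poly(A) RNA was sequenced from whole eyes and whole brains of wh5 fish, a line with a CYP1B1 knockout, and of wild-type (WT) fish. The 40 samples form 8 groups of 5 by organ, genotype and sex, so each organ has 10 wh5 and 10 WT samples, and the nature of the wh5 allele, the age in months and the source of the WT fish are not given in the labels. The values are the authors' deposited comparisons of wh5 with WT, 1 table per organ, with both sexes together and with no value of a single sample, so that per-fish values, sexes and overlap between the groups were not analysed here.

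A log2 change is the log2 of the fold of wh5 over WT, with its standard error (SE) as deposited, and a base mean is the average normalised count of both genotypes together. Genes with a deposited adjusted p below 0.05 are termed called. The labels of all 40 samples give one organ in the title and the other organ in the source field. Organs were taken from the titles, and the organ markers follow the names of the tables: the base mean of the rod gene rho was 632710 in the authors' deposited table for eye and 1359 in that for brain, and that of the neuronal gene elavl3 was 3012 in eye and 11919 in brain. For the targeted gene, cyp1b1, the log2 change was 0.54 (SE 0.14, adjusted p = 0.0160) according to the authors' deposited table for eye and -0.17 (SE 0.14, adjusted p = 0.818) in that for brain, so its level does not check the genotype labels. The eye call was lost when the test statistics were rescaled by their own spread (adjusted p = 0.420).

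The anterior segment comprises the cornea, iris, lens, ciliary tissue and the angle through which aqueous humour leaves the eye. Blocked outflow raises the pressure in the eye, and loss of retinal ganglion cells and their axons in the optic nerve is what defines glaucoma. In humans, mutations in CYP1B1 are a main cause of primary congenital glaucoma. FOXC1, PITX3, PAX6 and LMX1B act in the development of the anterior segment or lens, MYOC and OPTN mutations occur in open-angle glaucoma, and the TEK receptor is needed for Schlemm's canal, an outflow vessel of the mammalian eye. These roles are known from human and mouse genetics.

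None of the 9 genes was called in either organ. In eye this was 0 of 9, where 1.67% of all 19429 genes were called in the authors' deposited table, from DESeq2. In brain it was 0 of 9, where 0.736% of all 19300 genes were called in the authors' deposited table. At an unadjusted p below 0.05 stood 1 of the 9 in eye, myoc, where 14.2% of all genes stood there, and 0 of the 9 in brain, where 8.62% did. The median log2 change of the 9 genes was -0.012 in eye, against 0.0086 over all genes, and 0.0074 in brain, against -0.0014 over all genes. In eye 3 of the 9 had a positive and 6 a negative fold change, and in brain 5 were positive and 4 negative.

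**Figure D1:**
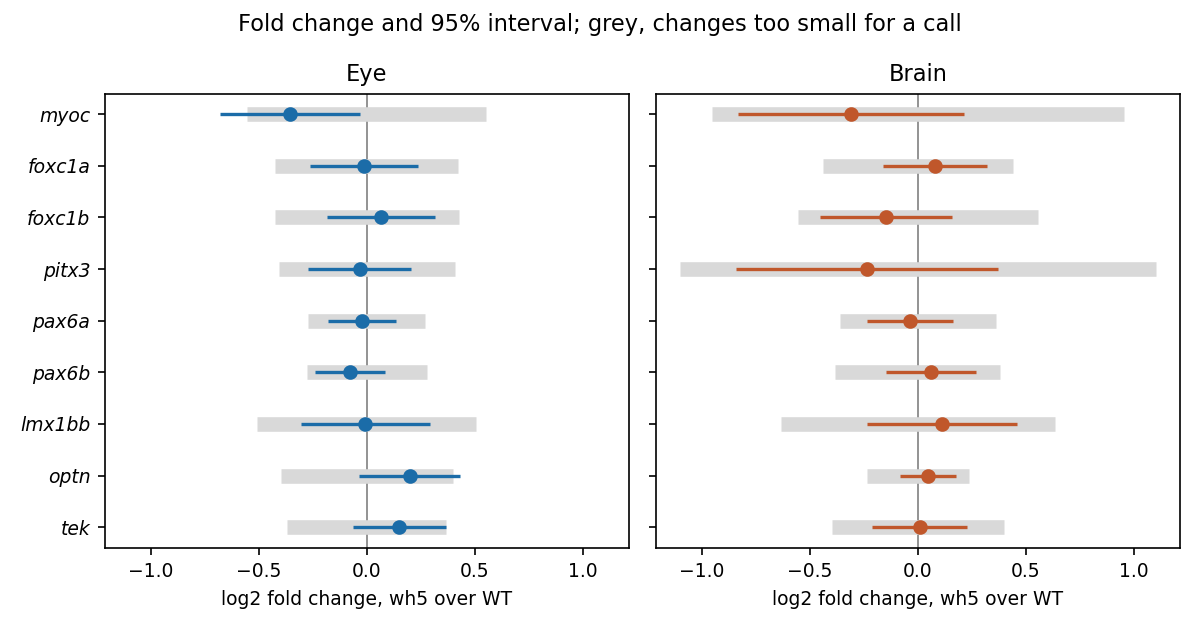
Log2 fold change of wh5 over WT (points, horizontal axis) with its 95% interval (coloured line) for the 9 genes in eye (left) and brain (right); the grey bar spans changes too small to have been called at that gene's SE. All 9 points lie inside their grey bars in both organs, and in eye the interval of myoc is the one that does not reach 0.

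myoc encodes myocilin, a secreted glycoprotein of the outflow tissue whose mutant forms aggregate in human trabecular meshwork cells. Its base mean in the authors' deposited table was 1166 in eye and 51.0 in brain. Its log2 change in eye was -0.36 (SE 0.17, unadjusted p = 0.0314, adjusted p = 0.284) according to the authors' deposited table. As a fold, wh5 eyes had 0.781 times the WT level, with a 95% interval of 0.623 to 0.978 from the deposited SE and of 0.580 to 1.05 when the SE was widened by the spread of all eye test statistics (robust SD 1.317). By p-value myoc ranked 2146 of 19429 genes in eye, within the first 11.05%. In brain its log2 change was -0.31 (SE 0.27, adjusted p = 0.830) according to the authors' deposited table, a fold of 0.806 with an interval of 0.560 to 1.16. The difference between the organs was -0.046 (eye minus brain, SE 0.31, adjusted p = 0.987).

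The SE of myoc in eye was high for its level. Among 1427 eye genes with a base mean within a factor of 1.2 of that of myoc, the median SE was 0.0987, and 88.3% had a smaller SE than the 0.17 of myoc in the authors' deposited table. A change of 0.55 log2 units, to 0.681 times or 1.47 times the WT level, would have been the smallest called at this SE. In eye the SE of pax6a (0.081 in the authors' deposited table) lay at the other end, with 21.0% of 243 genes of like level below it.

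**Figure D2:**
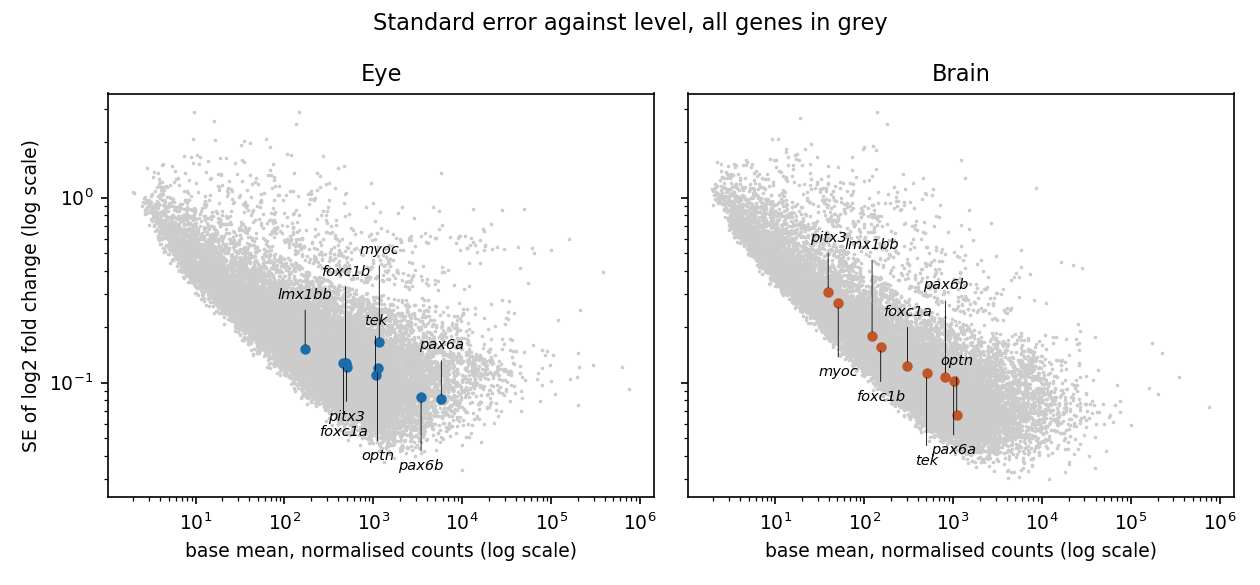
SE of the log2 fold change (vertical, log scale) against base mean (horizontal, log scale) for every gene (grey) and the 9 genes (coloured) in eye (left) and brain (right). In eye, myoc lies above most genes of its level, while in brain pitx3 and myoc have the highest SEs of the 9, 0.31 and 0.27, at the lowest base means.

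foxc1a and foxc1b are the zebrafish copies of FOXC1, a forkhead factor of periocular mesenchyme, the tissue that forms the corneal stroma, iris stroma and drainage angle. In the authors' deposited table foxc1a had a log2 change of -0.012 (SE 0.13, adjusted p = 0.982) in eye and 0.079 (SE 0.12, adjusted p = 0.927) in brain. For foxc1b the authors' deposited table gives 0.067 (SE 0.13, adjusted p = 0.865) in eye and -0.15 (SE 0.16, adjusted p = 0.882) in brain. The eye interval of the fold was 0.834 to 1.18 for foxc1a and 0.881 to 1.245 for foxc1b. Base means in the authors' deposited table were 460.4 in eye and 306 in brain for foxc1a, and 487 in eye and 153 in brain for foxc1b. How reads shared by similar copies were counted is not stated in the sources used here, and this also touches pax6a and pax6b.

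pax6a and pax6b are copies of PAX6, the paired box factor of lens, cornea, iris and retina that also marks amacrine and ganglion cells and forebrain progenitors. They had the narrowest eye intervals of the 9 genes. The authors' deposited table gives pax6a a log2 change of -0.022 (SE 0.081, adjusted p = 0.938) in eye and -0.035 (SE 0.10, adjusted p = 0.964) in brain. For pax6b the values in the authors' deposited table are -0.078 (SE 0.083, adjusted p = 0.729) in eye and 0.060 (SE 0.11, adjusted p = 0.938) in brain. The 95% interval of the fold in eye was 0.882 to 1.0996 for pax6a and 0.846 to 1.06 for pax6b. Base means in the authors' deposited table were 5817 in eye and 1015 in brain for pax6a, and 3443 in eye and 819 in brain for pax6b.

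pitx3, a homeodomain factor of the lens and, in mammals, of midbrain dopamine neurons, lies on the chromosome that holds cyp1b1, more than 10 Mb from it in RefSeq assembly GRCz12tu. On that chromosome 8.51% of genes were called in eye and 8.04% in brain, against 1.42% and 0.454% on other chromosomes. pitx3 was not among them: its log2 change was -0.032 (SE 0.12, adjusted p = 0.942) according to the authors' deposited table for eye and -0.24 (SE 0.31, adjusted p = 0.909) in that for brain. In eye its fold lay between 0.829 and 1.15 (95% interval). In brain the interval ran from 0.557 to 1.29 at a base mean of 39.3 in the authors' deposited table, and the smallest change that would have been called was 1.102 log2 units. Over the 12 measured lens markers in eye the median was 0.020 with no called gene. Their SEs were wide, from 0.51 (lim2.1) to 0.86 (cryaa), against a median of 0.14 over all eye genes, so only large changes could have been called. The 9 dopamine neuron markers in brain had a median of 0.15 and no called gene.

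lmx1bb is a copy of LMX1B, a LIM homeodomain factor of periocular mesenchyme and of serotonin and dopamine neurons, mutated in human nail-patella syndrome. In the authors' deposited table its log2 change was -0.0066 (SE 0.15, adjusted p = 0.993) in eye and 0.11 (SE 0.18, adjusted p = 0.928) in brain. Its base means in the authors' deposited table were 171 in eye and 123 in brain, and its fold lay between 0.810 and 1.22 in eye and between 0.848 and 1.38 in brain. The other copy, lmx1ba, had 0.014 (SE 0.11) in eye and 0.037 (SE 0.17) in brain in the authors' deposited table.

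optn encodes optineurin, which links ubiquitinated cargo to autophagosomes and is phosphorylated by the kinase TBK1. Its base means in the authors' deposited table were 1114 in eye and 1098 in brain. Its log2 change was 0.20 (SE 0.12, unadjusted p = 0.0959, adjusted p = 0.456) according to the authors' deposited table for eye and 0.045 (SE 0.066, adjusted p = 0.923) in that for brain. The fold in eye had an interval of 0.976 to 1.35, and that in brain, the narrowest of the 9 in that organ, of 0.943 to 1.13. tbk1 had 0.11 (SE 0.056, adjusted p = 0.378) in eye and -0.069 (SE 0.056, adjusted p = 0.809) in brain in the authors' deposited table. For the autophagy receptor gene sqstm1 the authors' deposited table gives 0.23 (SE 0.14, adjusted p = 0.438) in eye and 0.043 (SE 0.064, adjusted p = 0.923) in brain. The 26 partners of optineurin measured in eye went both ways, 17 positive and 9 negative. Their log2 changes ran from -0.24 to 0.77, with none called.

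tek encodes the angiopoietin receptor of vascular endothelium. Its log2 fold change in the authors' deposited table was 0.15 (SE 0.11, adjusted p = 0.566) in eye and 0.0074 (SE 0.11, adjusted p = 0.994) in brain. The fold interval was 0.956 to 1.29 in eye and 0.863 to 1.17 in brain. The related receptor gene tie1 had -0.37 (SE 0.14, unadjusted p = 0.00634, adjusted p = 0.141) in eye and -0.16 (SE 0.16, adjusted p = 0.868) in brain in the authors' deposited table. The ligand gene angpt1 had -0.075 (SE 0.17, adjusted p = 0.890) in eye and 0.25 (SE 0.096, adjusted p = 0.274) in brain in the authors' deposited table. The median over 21 markers of vascular endothelium was -0.083 in eye, 7 positive and 14 negative, and -0.044 in brain, with no called gene in either (2 at an unadjusted p below 0.05 in each). In whole organs, fewer cells of a type and less RNA per cell cannot be told apart.

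**Figure D3:**
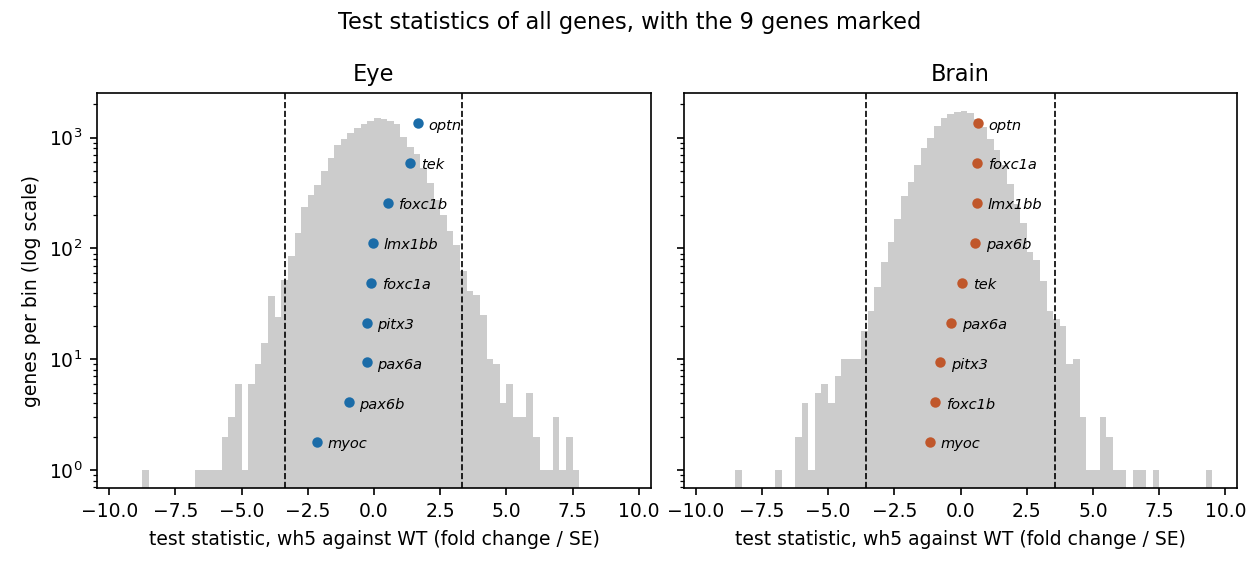
Test statistic of wh5 against WT (horizontal axis, fold change over SE) for all genes (grey histogram, log scale) in eye (left) and brain (right), with the 9 genes marked at spaced heights that carry no value; dashed lines show the statistic needed for a call, 3.34 in eye and 3.56 in brain. All 9 genes lie between the dashed lines, with myoc at -2.15 in eye the farthest from 0.

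The size of change that the data allow differed between the genes. In eye the 95% interval lay wholly between 0.667 and 1.5 times the WT level for 8 of the 9 genes, all but myoc, and for 66.2% of all genes. In brain it did so for 7 of the 9, all but myoc and pitx3, and for 69.4% of all genes. Within the tighter range of 0.833 to 1.2 times lay foxc1a, pax6a and pax6b in eye (3 of 9, against 18.6% of all genes) and pax6a, optn and tek in brain (3 of 9, against 32.1%). With SEs widened by the spread of all test statistics, the tighter range held for 1 of 9 in eye, pax6a, against 9.08% of all genes. In brain it held for the same 3 of 9, against 27.8% of all genes.

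The base means of 9 of 9 genes were higher in the eye table than in the brain table. On these separately normalised base means, myoc was 22.9 times as high in eye as in brain, pitx3 12.7 times, pax6a 5.73 times, pax6b 4.21 times and foxc1b 3.17 times, where the median over the 18275 genes in both tables was 0.960. By this ratio myoc stood at the 96.5th percentile of those genes, pitx3 at the 94.9th and pax6a at the 91.0th. tek was at 2.099 times (78.8th percentile), foxc1a at 1.503 (70.3rd), lmx1bb at 1.39 (68.1st) and optn at 1.01 (53.3rd, near the middle of all genes). Without values of single samples these ratios carry no error and were not tested.

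**Figure D4:**
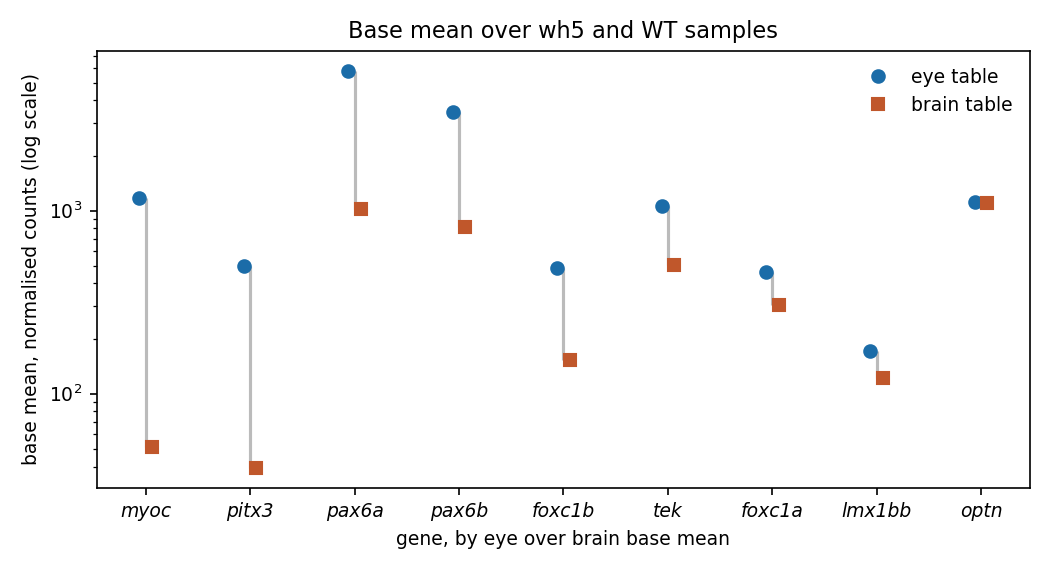
Base mean of each of the 9 genes (vertical, log scale, normalised counts over wh5 and WT samples) in the eye table (circles) and brain table (squares), ordered by their ratio. The gap is widest for myoc, 1166 in eye and 51.0 in brain, and closes for optn, 1114 in eye and 1098 in brain.

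The effect of wh5 was not shown to differ between the organs for any of the 9 genes. Their differences in log2 fold change, eye minus brain, ran from -0.14 (pax6b, SE 0.14) to 0.21 (foxc1b, SE 0.20), with adjusted p from 0.798 for optn to 0.991 for pax6a (normal test on both SEs, adjusted over 18275 genes, of which 0.0821% were called). The 95% interval of the difference was narrowest for pax6a, -0.24 to 0.27 log2 units, and widest for pitx3, -0.45 to 0.86.

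Genes related to these 9 by pathway or role were examined in 6 further lists, which hold 180 measured genes in eye and 170 in brain. In eye 1 of the 180 was higher and 3 were lower in wh5, and in brain 1 of the 170 was higher and none was lower. Among all genes 0.973% were called higher and 0.7% lower in eye, and 0.368% each way in brain.

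Transcription factor genes of the eye field and anterior segment held 3 of the eye calls, from 47 measured genes with a median log2 change of -0.041. rx1, a retinal homeobox gene of eye field and photoreceptors, fell by 0.38 log2 units (SE 0.097, adjusted p = 0.0131) according to the authors' deposited table. six6b, a sine oculis factor gene whose human counterpart SIX6 is linked to optic disc size and glaucoma, rose by 0.44 log2 units (SE 0.12, adjusted p = 0.0186) according to the authors' deposited table. The other copy, six6a, lies on the chromosome of cyp1b1. It had -0.25 (SE 0.15, adjusted p = 0.445) in eye and 0.25 (SE 0.25, adjusted p = 0.868) in brain in the authors' deposited table. No gene of the list was called in brain (0 of 42, 4 at an unadjusted p below 0.05), where rx1, listed with a base mean of 7.97, had -2.42 (SE 0.95, adjusted p = 0.328) according to the authors' deposited table. The difference between the organs did not pass for rx1 (adjusted p = 0.577) or six6b (adjusted p = 0.691).

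Genes of outflow tissue and corneal matrix had 1 call among 30 in eye and a median of -0.077. This was slc4a11, a transporter gene of the corneal endothelium that is mutated in human corneal dystrophies, which fell by 0.52 log2 units (SE 0.15, adjusted p = 0.0281) according to the authors' deposited table and lies on the chromosome of cyp1b1. Its base mean was 368 in eye and 662 in brain in the authors' deposited table, so its RNA was not confined to the eye. In brain slc4a11 had 0.040 (SE 0.11, adjusted p = 0.962) according to the authors' deposited table, and its difference between the organs did not pass (adjusted p = 0.304). The stromal keratan sulphate gene kera had -0.11 (SE 0.10, adjusted p = 0.672) in eye, and tgfbi, a corneal matrix gene, had -0.00062 (SE 0.097, adjusted p = 0.999), both in the authors' deposited table. Over markers of cornea and surface epithelium the median was 0.38 in eye, with 8 of 11 positive, and 0.53 in brain, with 9 of 9 positive. None of these markers was called in either organ (2 in eye and 0 in brain at an unadjusted p below 0.05), and their part in the values of the corneal genes was not tested.

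These eye calls were lost when the test statistics were rescaled by their spread, with an adjusted p of 0.408 for rx1, 0.442 for six6b and 0.537 for slc4a11. The lowest adjusted p over the alternatives was 0.0127 for rx1, 0.0173 for six6b and 0.0266 for slc4a11, and none of the 3 reached a log2 change of 1. The median over markers of amacrine and ganglion cells was -0.17 in eye, with 10 of 12 negative. Of these, nefma was called lower at -0.69 (SE 0.20, adjusted p = 0.0343, and 0.582 when rescaled) according to the authors' deposited table. Among all eye genes 0.7% were called lower. The base mean of nefma was 230 in eye and 11188 in brain in the authors' deposited table. General neuron markers in eye had a median of -0.10, with 5 of 6 negative and none called. The median over photoreceptor markers in eye was 0.15, with 10 of 12 positive and none called. The part of these cell types in the rx1 and six6b values was not tested.

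**Figure D5:**
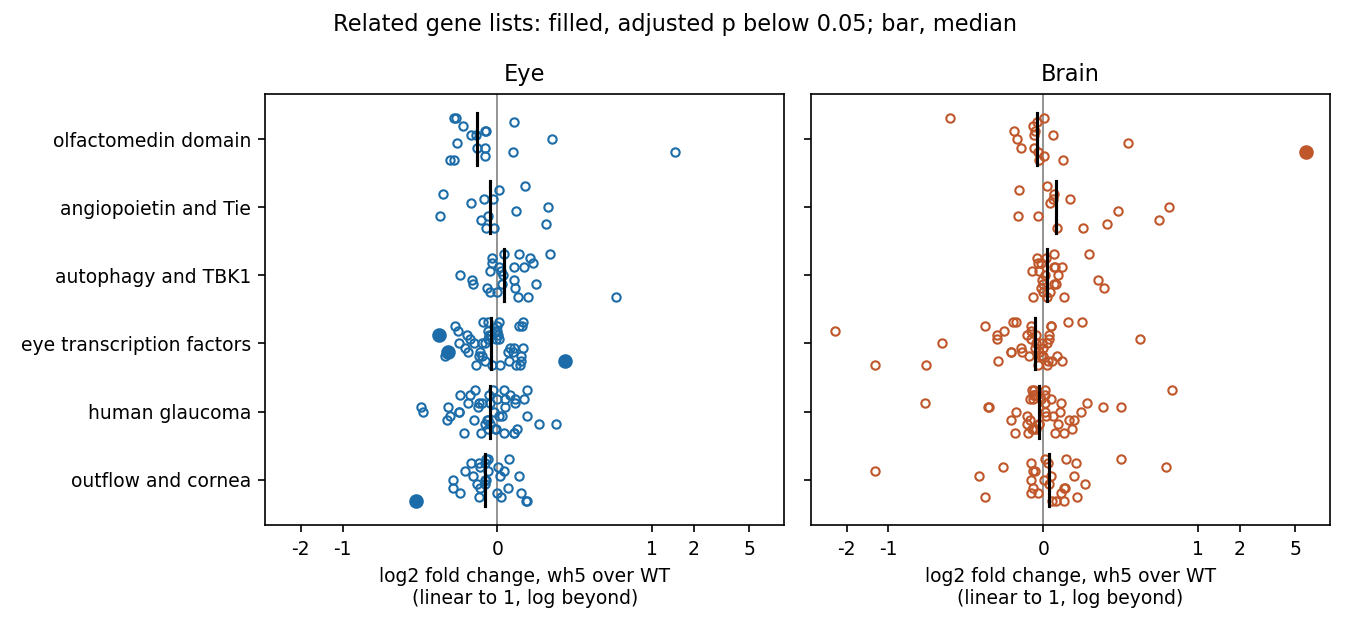
Log2 fold change of wh5 over WT (horizontal, linear to 1 and logarithmic beyond) for each gene of the 6 related lists in eye (left) and brain (right); filled points have an adjusted p below 0.05 and bars are medians. Medians lie between -0.13 and 0.081, and the filled points include rx1, six6b and slc4a11 in eye and 1 olfactomedin gene in brain.

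The remaining lists gave 1 call. Olfactomedin domain genes, relatives of myoc, had a median of -0.13 over 17 genes in eye, 4 positive and 13 negative, with none called and 2 at an unadjusted p below 0.05, and of -0.039 over 17 in brain. The brain call was si:ch211-173a9.6, named olfm4.2 in RefSeq, at 5.98 (SE 1.66, adjusted p = 0.0473) according to the authors' deposited table. Its base mean was 71.9 in that authors' deposited table and the call was lost on rescaling (adjusted p = 0.164) and without the chromosome of cyp1b1 (0.0772). The angiopoietin and Tie list had medians of -0.045 in eye and 0.081 in brain over 14 genes each, with no call and with 1 and 3 genes at an unadjusted p below 0.05. Its genes with the highest base mean in eye, ptprb, foxo1a and tie1, had -0.020 (SE 0.093), -0.35 (SE 0.18) and -0.37 (SE 0.14) in the authors' deposited table. In brain ptprb, svep1 and foxo1a were highest, with 0.091 (SE 0.099), 0.065 (SE 0.11) and 0.071 (SE 0.11) in the authors' deposited table.

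Partners of optineurin in autophagy had medians of 0.040 over 26 genes in eye and 0.025 over 25 in brain, with no call and with 5 and 2 genes at an unadjusted p below 0.05. Those with the highest base means in eye, gabarapb and map1lc3b, which encode the membrane-bound proteins that autophagy receptors grip, had 0.11 (SE 0.12) and 0.11 (SE 0.073) in the authors' deposited table, and the receptor gene nbr1b -0.045 (SE 0.057). In brain gabarapb, map1lc3b and gabarapa had -0.015 (SE 0.070), -0.0063 (SE 0.041) and -0.026 (SE 0.039) in the authors' deposited table. Other genes linked to human glaucoma had medians of -0.048 over 46 in eye and -0.024 over 43 in brain, also with no call and with 3 and 4 genes at an unadjusted p below 0.05. Of these, the cholesterol exporter gene abca1a had 0.11 (SE 0.11) in eye and 0.13 (SE 0.079) in brain in the authors' deposited table, and opa1, a gene of mitochondrial fusion, had -0.014 (SE 0.052) in brain. The thioredoxin reductase gene txnrd3 had 0.043 (SE 0.070) in eye and -0.071 (SE 0.061) in brain in the authors' deposited table, and lmo7a had 0.12 (SE 0.24) in eye.

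In brain, the 11 measured photoreceptor markers were all negative, with a median of -2.67. Called lower in the authors' deposited table were arr3b at -3.01 (SE 0.75), opn1sw2 at -3.85 (SE 1.03) and gnat2 at -3.05 (SE 0.86). Base means of these 3 were 85.4, 71.8 and 256 in brain, against 27940, 24081 and 75000 in eye. In eye they had 0.070, 0.11 and -0.11, none called. Their differences between the organs did not pass (adjusted p = 0.0534, 0.0875 and 0.208). Of all brain genes, 0.368% were called lower. The 3 photoreceptor calls were lost when the statistics were rescaled (adjusted p = 0.0635 for arr3b, 0.115 for opn1sw2 and 0.169 for gnat2). Those of opn1sw2 (0.0514) and gnat2 (0.0796) were also lost when the unchanged p-values were readjusted without the genes of the chromosome of cyp1b1. Beside these, the 2 genes of the 9 with the highest ratio of eye to brain level had -0.31 (myoc, SE 0.27) and -0.24 (pitx3, SE 0.31) in brain in the authors' deposited table. The next by this ratio had -0.035 (pax6a, SE 0.10) and 0.060 (pax6b, SE 0.11) in the authors' deposited table, and none of these was called. Of the 6 lens markers measured in brain, 5 were positive and 1 negative, with a median of 0.21. The negative marker, at -0.73 (SE 0.29) in the authors' deposited table, was the 1 with an unadjusted p below 0.05. The median base mean of the 6 was 15.2, and none was called. Whether the amount of eye tissue in the brain samples bears on any of these values was not tested.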

How the data were processed

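RNA sequencing of 40 zebrafish samples was deposited as 2 tables of the authors' own comparison of wh5 with WT, one for eye and one for brain. Build GRCz11 and the tools fastp, STAR and DESeq2 1.32.0 are named, per the submitters' processing notes. Filters, model formula and covariates are not stated in the sources used here. Per the file headers the authors deposited a log2 fold change with its SE. The logarithm's base is not written and was taken as that of DESeq2. They also deposited the base mean, a signal of mean normalised counts, and a test statistic, a score equal to fold change over SE. The deposited p-value matched a normal test of this statistic to within 2.79e-05, and the adjusted p-value matched a Benjamini-Hochberg adjustment to within a relative 0.00453. Depth per library is unknown, so precision is given by the SE, and it is not stated whether samples came from separate fish.

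Computed here (Python 3.11.15 with scipy 1.17.1, numpy 2.4.6 and pandas 2.3.3, plots by matplotlib 3.10.9) were 95% intervals (normal), the smallest change that would be called, the difference between organs (errors taken as independent, with a correlation of 0.3 as an alternative) and 6 alternatives for the comparison of genotypes: p rescaled by the robust SD of all statistics, base mean minima of 10 and 50, no genes of the chromosome of cyp1b1, a minimum log2 change of 1 and an adjusted p threshold of 0.1. The rescaling and the minimum of 50 were also applied to the difference between organs. The calculations were tested on simulated data. Calls without rescaling were also simulated with wider noise. They were required to pass only with noise as wide as the deposited SEs. That is narrower than the spread of the statistics here (robust SD 1.317 in eye and 1.104 in brain). Chromosomes came from RefSeq GRCz12tu, in which 96.4% of eye and 96.1% of brain genes were placed.

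The 9 genes and all lists were chosen with earlier results of these data known. The named genes were the 9, called members of each list, or the 3 with the highest base mean per organ where a list had no call. tbk1, sqstm1, tie1, angpt1, lmx1ba, kera and tgfbi were named for their role, and six6a as the other copy of six6b. efemp1, angptl4 and tgfbr3 were named for their values. All of these genes were named after their values were seen. Of 12 marker lists, those beside a result are given, and 17 listed symbols were not matched. A gene that the naming rule includes is not reported here.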

Additional observations from a re-analysis of the deposited data

How the results depend on the processing

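None of the 9 genes was called in eye, in brain or in the difference between organs under any of the alternatives that held it. Their lowest adjusted p under an alternative was 0.276. The rescaling and the minimum log2 change can only remove calls, so they could not have given a call here. The threshold of 0.1 uses the deposited adjusted p, whose lowest value among the 9 was 0.284, so its outcome was fixed too. Removing the chromosome of cyp1b1 left each p unchanged and raised the adjusted p of myoc in eye to 0.295. pitx3 was left out where the chromosome of cyp1b1 was removed. It was also left out at a base mean of at least 50 in brain and in the difference between organs. Counts over all genes moved more. In eye 325 genes were called, against 38 with rescaled statistics, 95 with a log2 change of at least 1 and 642 at an adjusted p below 0.1. In brain 142 were called, against 75 with rescaled statistics, 45 with a log2 change of at least 1 and 65 without the chromosome of cyp1b1. Genes called for a difference between organs numbered 15, against 0 with rescaled SEs, 9 at a base mean of at least 50 and 111 with errors correlated at 0.3. The cause of the spread in the statistics was not tested. No paired analysis was possible because the deposited tables hold no values of single samples, and for the same reason no replicate could be left out. The SE limits what could be seen: in brain, changes in pitx3 under 1.102 and in myoc under 0.95 log2 units would not have been called.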

Other observations

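The following 3 genes linked to human glaucoma or to the vessels were picked after their values were seen, and none was called in either organ. The matrix gene efemp1, which encodes a fibulin, had a log2 change of 0.27 (SE 0.22, adjusted p = 0.628) in eye and 0.83 (SE 0.24, adjusted p = 0.0641) in brain in the authors' deposited table. Of the 3 genes, efemp1 alone lies on the chromosome of cyp1b1, where the share of called genes was higher than elsewhere. For the lipase inhibitor gene angptl4 the authors' deposited table gives 0.33 (SE 0.17, adjusted p = 0.367) in eye and 0.82 (SE 0.24, adjusted p = 0.0843) in brain. The transforming growth factor beta co-receptor gene tgfbr3 had -0.48 (SE 0.21, adjusted p = 0.232) in eye and -0.35 (SE 0.13, adjusted p = 0.232) in brain in the authors' deposited table. The differences between organs did not pass for these 3 genes (adjusted p = 0.670 for efemp1, 0.691 for angptl4 and 0.939 for tgfbr3).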
